A study of Homo sapiens and Mus musculus with 61 samples.

Results

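The second of a pair of guide RNAs aimed at HS5, sgHS5-sg2, was compared with sgGal4, a guide against a yeast sequence. The comparison rests on the table in which the authors set 2 sgHS5-sg2 libraries (replicates 1 and 2) against 4 sgGal4 libraries (replicates 1 to 4). All 6918 regions of 300 bp listed in it were used, of 143198 entries in 17 tables. Those entries come to 91133 distinct sets of coordinates, in which a region shifted by a few bp between tables counts again. The series holds 61 samples. Those used here were K562 cells, a human leukaemia line with erythroid features. Both groups carried a catalytically inactive Cas9 with a biotin tag and differed in the guide RNA only, as far as the labels say. The tagged protein was pulled down on streptavidin beads with the DNA it occupied, and that DNA was sequenced (CAPTURE-ChIP-seq). The question, per the series' design text, was where the inactive Cas9 sits in the genome with a targeting guide, set against a guide with no target. Replicates are numbered in the labels, with no word on separate cultures, so each p-value measures only the spread between these libraries, which may be technical. Pulled-down DNA gives no expression level, so the K562 label was not checked against marker genes.

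HS5 is the outermost of the DNase I hypersensitive sites of the beta-globin locus control region, on the side away from the globin genes. In erythroid cells it binds CTCF, a zinc-finger protein that, together with cohesin, anchors chromatin loops and marks domain borders, and it is known as an insulator element. Inactive Cas9 is brought to a site by base pairing of its guide with a protospacer that is followed by a short PAM, NGG for the common enzyme. The bases next to the PAM, the seed, tolerate mismatches least. The sequence of sgHS5-sg2 is not given in the sources used here.

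The sequence of the target region is shown because the main result lies in it, followed by 4 others. ZCCHC24 and ARHGAP35 were the 2 highest regions after it, LRGUK was a high region of low GC content, and ADGRF1 was the lowest region called. All are the plus strand of hg19, read from the GRCh37 reference. In the target, capitals mark a match on the minus strand to the CTCF core consensus less its last letter, chosen after the values were seen; in the other regions, capitals mark CG dinucleotides.
HS5 target, chr11:5312434-5312733: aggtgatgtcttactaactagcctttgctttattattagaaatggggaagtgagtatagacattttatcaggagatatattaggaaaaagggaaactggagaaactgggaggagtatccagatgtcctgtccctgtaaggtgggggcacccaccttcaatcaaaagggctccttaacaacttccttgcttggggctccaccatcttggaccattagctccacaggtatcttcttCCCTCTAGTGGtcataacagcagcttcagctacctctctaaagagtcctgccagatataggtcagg
ZCCHC24, chr10:81205267-81205566: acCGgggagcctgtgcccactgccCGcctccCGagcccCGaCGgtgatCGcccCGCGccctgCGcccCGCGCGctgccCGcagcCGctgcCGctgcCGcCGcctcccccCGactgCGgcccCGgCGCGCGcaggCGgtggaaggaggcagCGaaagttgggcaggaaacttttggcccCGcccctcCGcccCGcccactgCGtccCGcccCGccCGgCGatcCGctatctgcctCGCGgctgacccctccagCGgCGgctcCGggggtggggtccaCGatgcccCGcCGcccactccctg
ARHGAP35, chr19:47364007-47364306: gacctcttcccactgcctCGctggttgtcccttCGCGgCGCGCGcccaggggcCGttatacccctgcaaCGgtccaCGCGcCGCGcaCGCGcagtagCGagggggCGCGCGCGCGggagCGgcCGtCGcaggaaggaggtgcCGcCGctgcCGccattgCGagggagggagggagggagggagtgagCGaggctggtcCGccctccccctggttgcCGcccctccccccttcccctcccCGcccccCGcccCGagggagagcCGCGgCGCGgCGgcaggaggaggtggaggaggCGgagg
LRGUK, chr7:133859594-133859893: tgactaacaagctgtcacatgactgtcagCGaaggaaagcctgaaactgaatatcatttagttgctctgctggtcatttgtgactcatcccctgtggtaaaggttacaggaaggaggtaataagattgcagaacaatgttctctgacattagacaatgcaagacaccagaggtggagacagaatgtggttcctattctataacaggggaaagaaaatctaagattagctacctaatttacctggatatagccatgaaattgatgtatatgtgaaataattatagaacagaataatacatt
ADGRF1, chr6:46989561-46989860: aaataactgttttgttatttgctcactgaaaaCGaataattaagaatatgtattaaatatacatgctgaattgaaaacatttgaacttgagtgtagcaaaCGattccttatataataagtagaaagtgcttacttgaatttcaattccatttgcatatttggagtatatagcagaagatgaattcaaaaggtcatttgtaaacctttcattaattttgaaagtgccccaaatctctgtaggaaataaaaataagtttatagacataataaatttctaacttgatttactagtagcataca
The target region held 0 CG dinucleotides at a GC content of 45.3%. The ZCCHC24 region held 42 at 79.0% and the ARHGAP35 region 39 at 77.0%. The LRGUK region held 1 at 37.7% and the ADGRF1 region 2 at 26.7%.

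The levels in the table are on a log2 scale and were deposited without a stated unit. Within each library they lie on a line in the log2 of whole numbers, so reads per region could be worked out; 100% of values came out whole within 0.01. Over the listed regions the sgHS5-sg2 libraries held 59922 and 40036 reads, and the sgGal4 libraries held 51269, 91429, 9268 and 8878. sgGal4 replicates 3 and 4 stood apart. In each the median region held 1 read and 34.5% and 33.1% of regions had 0 reads, against 8.22% and 12.9% of regions in the sgHS5-sg2 libraries and 6.91% and 3.40% in sgGal4 replicates 1 and 2. A region with 0 reads was given a level of 0.00 and 1.004 in the sgHS5-sg2 libraries, and of 0.40, -0.23, 2.87 and 2.87 in the sgGal4 libraries. A region with 0 reads in all 6 libraries would thus have a log2 ratio of -1.48, where the ratio is the log2 of the mean linear level with sgHS5-sg2 over that with sgGal4.

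The target at HS5 was the highest region of the table by a wide margin. It lies in an intron of the long transcript models of HBE1 and HBG2 (GENCODE), 10593 bp from the nearest protein-coding start, that of the olfactory receptor gene OR51B4, and it is the only region to which the authors gave an on-target tag. It held 991 and 489 reads in the sgHS5-sg2 libraries and 7, 13, 1 and 0 reads in the sgGal4 libraries. Both sgHS5-sg2 libraries were far above all 4 sgGal4 libraries, with no overlap. By reads the region ranked 1 in both sgHS5-sg2 libraries, and between 2387 and 4627 in the sgGal4 libraries. The next region by reads in sgHS5-sg2 replicate 1 held 96 (EEF1A1) and in replicate 2 held 91 (TMEM65). The mean deposited log2 level was 9.54 ± 0.58 with sgHS5-sg2 (SD, n = 2) and 3.28 ± 0.31 with sgGal4 (SD, n = 4). The log2 ratio was 6.30 (SE 0.50 for the difference of mean log2 levels), with an adjusted p of 0.000699 by limma with Benjamini-Hochberg adjustment over the table.

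On the scale of reads, the target took 1.65% (95% Clopper-Pearson interval 1.55% to 1.76%) and 1.22% (1.12% to 1.33%) of the reads in listed regions in the sgHS5-sg2 libraries. In sgGal4 replicates 1 to 3 it took 0.0137%, 0.0142% and 0.0108%. In replicate 4 it had 0 of 8878 reads, with a 95% Clopper-Pearson upper limit of 0.0415%. The mean share was 1.44% ± 0.31 (SD, n = 2) with sgHS5-sg2 and 0.00967% ± 0.0066 (SD, n = 4) with sgGal4. An exact two-sided permutation test over the 15 arrangements gave p = 0.133, the smallest it can give, so this design cannot reach 0.05 for a single value. Pooled over libraries, the share was 113-fold higher with sgHS5-sg2 (1480 of 99958 reads) than with sgGal4 (21 of 160844 reads), with a counting interval of 73.9 to 184. Intervals and limits of this kind cover counting error only, and PCR copies are not separate molecules. The call was lost without sgHS5-sg2 replicate 1, with a log2 ratio of 5.83 and an adjusted p of 0.0805 in limma, and on reads scaled to a common total with a pseudocount of 1, with 6.91 and 0.0620. The region ranked 1 under every alternative run, and its ratio stayed between 5.83 and 7.17.

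**Figure D1:**
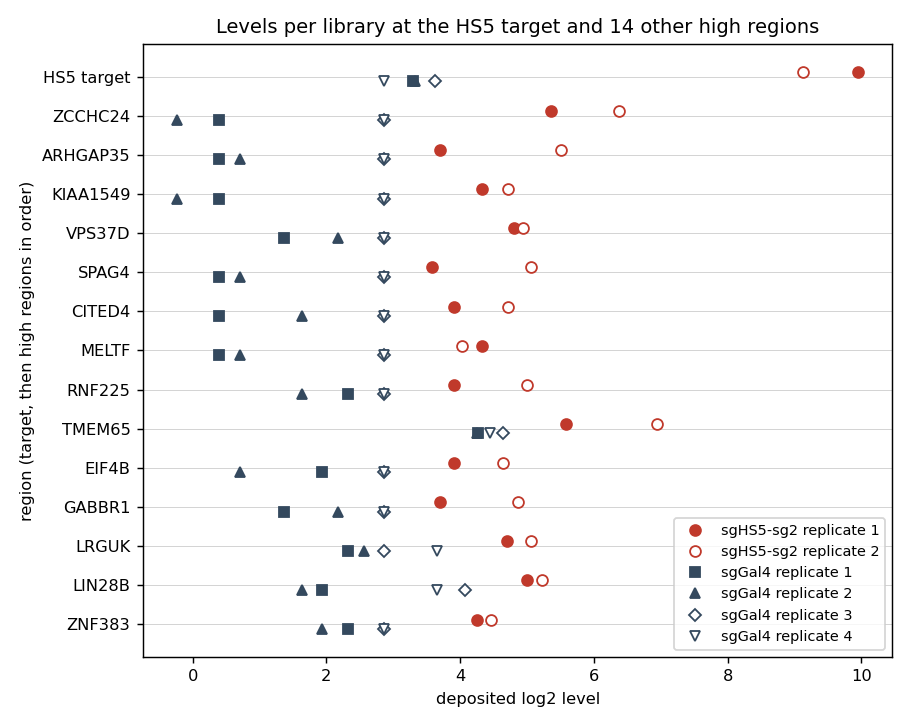
Deposited log2 level (horizontal axis) of the HS5 target and of 14 of the 15 other regions with the highest log2 ratio among those called higher, one row per region, with sgHS5-sg2 libraries in red above sgGal4 libraries in dark blue and one point per library. At the target the sgHS5-sg2 libraries lie at 9.95 and 9.13 and the sgGal4 libraries between 2.87 and 3.63, and in the rows below, sgGal4 replicates 3 and 4 often share the level of 2.87 that stands for 0 reads.

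The rest of the beta-globin cluster was nearly absent from the table. Only 2 listed regions lay between 3'HS1 and HS5, the target and a region near HBG1, one of the fetal gamma-globin genes, at chr11:5273371-5273670 and 39.1 kb from the target. The HBG1 region held 10 and 5 reads in the sgHS5-sg2 libraries and 7, 14, 0 and 2 reads in the sgGal4 libraries. These values overlapped, with a log2 ratio of -0.09 and an adjusted p of 0.987 in limma. The other hypersensitive sites of the locus control region and the promoters of HBB, HBD and HBE1 had no listed region, so no level can be given for them.

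The nearest listed region beyond the cluster on either side along chromosome 11 was called lower with sgHS5-sg2 on the deposited levels. A region in an intron of STIM1, which encodes the calcium sensor of the endoplasmic reticulum, lay 1302 kb away and held 2 and 2 reads in the sgHS5-sg2 libraries and 18, 20, 1 and 1 reads in the sgGal4 libraries (log2 ratio -1.88, adjusted p 0.0266). A region in an intron of FHIP1B lay 941 kb away on the other side and held 3 and 1 reads in the sgHS5-sg2 libraries and 14, 19, 0 and 2 reads in the sgGal4 libraries (log2 ratio -1.86, adjusted p 0.0386). In both regions the excess of reads was in sgGal4 replicates 1 and 2, and the shallow replicates 3 and 4 had 0 to 2 reads. Neither call held on reads scaled to a common total (limma adjusted p 0.199 and 0.192 for STIM1 and 0.486 and 0.316 for FHIP1B, with pseudocounts of 1 and 5) or with levels centred by GC content, where STIM1 had -1.97 (adjusted p 0.115) and FHIP1B turned to 0.71. FHIP1B also had no call with libraries centred on their median (adjusted p 0.0554). The STIM1 call was lost without sgHS5-sg2 replicate 1 (adjusted p 0.181), sgGal4 replicate 1 (0.0660) or sgGal4 replicate 2 (0.0518), and that of FHIP1B without any library but sgGal4 replicate 3 (0.0730 to 0.163). The next region on the FHIP1B side, near CNGA4 and 943 kb from the target, was not called, and there the sgHS5-sg2 libraries held more reads, 12 and 15, against 1, 6, 0 and 0 in the sgGal4 libraries (log2 ratio 1.76, adjusted p 0.0533); it falls outside the rule for named regions. Within 5 Mb of the target, 35 other regions were listed, of which 0 were called higher and 5 (14.3%) lower by limma, against 0.52% and 19.2% of all listed regions. Their median log2 ratio was 0.11, against -0.21 over all regions, and these counts single out nothing about the flanks.

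The HS5 target in the tables of the other guides with a site there is given side by side, since those tables share the 4 sgGal4 libraries, were normalised separately and list regions of their own. With the first guide, sgHS5, the overlapping region starts 16 bp earlier and held 2627, 745 and 399 reads in 3 libraries, against 7, 11, 1 and 0 reads with sgGal4, with a log2 ratio of 7.62 (limma adjusted p 0.0582, 16655 regions). With the pool sgHS1-5 it starts 1 bp later and held 606, 1014, 45, 27, 526 and 997 reads in 6 libraries, against 7, 13, 1 and 0 reads with sgGal4, with a log2 ratio of 5.50 (limma adjusted p 0.000328, 16890 regions). The region near HBG1 had a log2 ratio of -0.22 with sgHS5 and of 0.14 with sgHS1-5. The difference between the guides was not tested.

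Over the whole table, 36 of 6918 regions (0.52%) were called higher with sgHS5-sg2, which takes a ratio of 1 or more on the log2 scale together with a limma adjusted p below 0.05. Another 1328 (19.2%) were called lower, with a ratio of -1 or less. At an unadjusted p below 0.05 the numbers were 394 (5.7%) and 1962 (28.4%). The target was 1 of the 36 and the other 35 lay outside the cluster, on chromosomes other than 11. The median log2 ratio of all regions was -0.21. Of the 36, 25 had a log2 ratio from 1 to below 2, 9 from 2 to below 3, 1 was at 3.89 and the target alone was above 6. Only the target had an unadjusted limma p of at most 1e-05. Both sgHS5-sg2 libraries lay above all sgGal4 libraries in 759 regions (11%) and below all of them in 2308 (33.4%).

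These counts depended on the scale and on the shallow sgGal4 libraries far more than the target did. Without sgGal4 replicates 3 and 4, which was chosen after the values were seen, limma called 1164 higher and 1356 lower. With each library centred on its median, which moved the median ratio to 0.00, it called 277 higher and 1261 lower, so that 18.0% of calls were higher in place of 2.64%. On reads scaled to a common total, limma called 2 higher (the target and ZCCHC24) and 0 lower with a pseudocount of 5, with 614 and 657 at an unadjusted p below 0.05. With a pseudocount of 1 it called 0 and 0, with 712 and 900 unadjusted. Without sgHS5-sg2 replicate 1 it called 0 higher and 0 lower, with 287 and 1494 unadjusted, and without replicate 2 it called 1 higher (the target) and 896 lower. Without sgGal4 replicate 1, 2 or 3 it called 6, 4 and 68 higher. Every region called higher or lower here is called on the deposited levels and carries this limit.

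**Figure D2:**
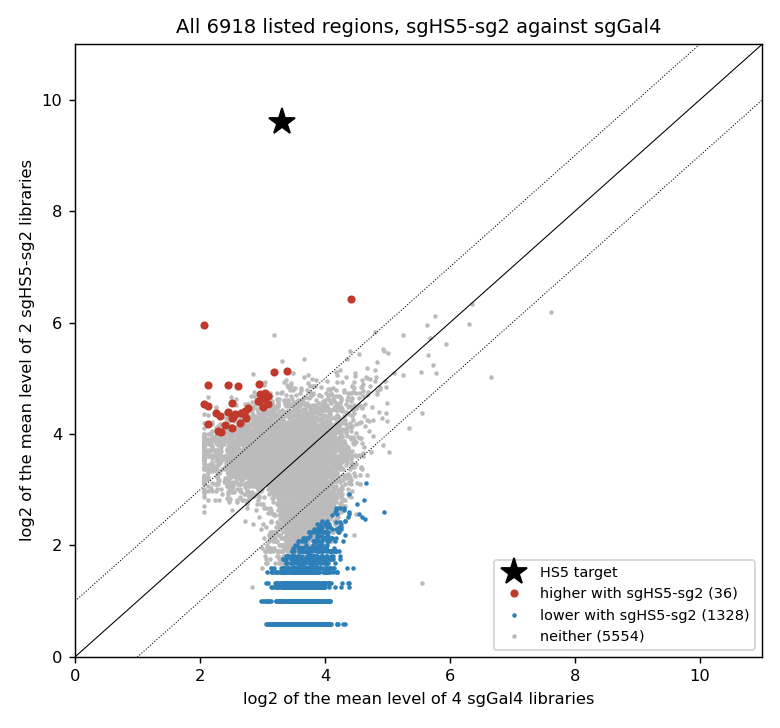
Log2 of the mean level of the 2 sgHS5-sg2 libraries (vertical) against that of the 4 sgGal4 libraries (horizontal) for all 6918 listed regions; solid line, equal levels; dotted lines, a log2 ratio of 1 either way. The target (star) stands alone at the top, the 36 regions called higher (red) include it, and the 1328 called lower (blue) lie in bands at the bottom where the sgHS5-sg2 libraries had 0 or few reads.

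**Figure D3:**
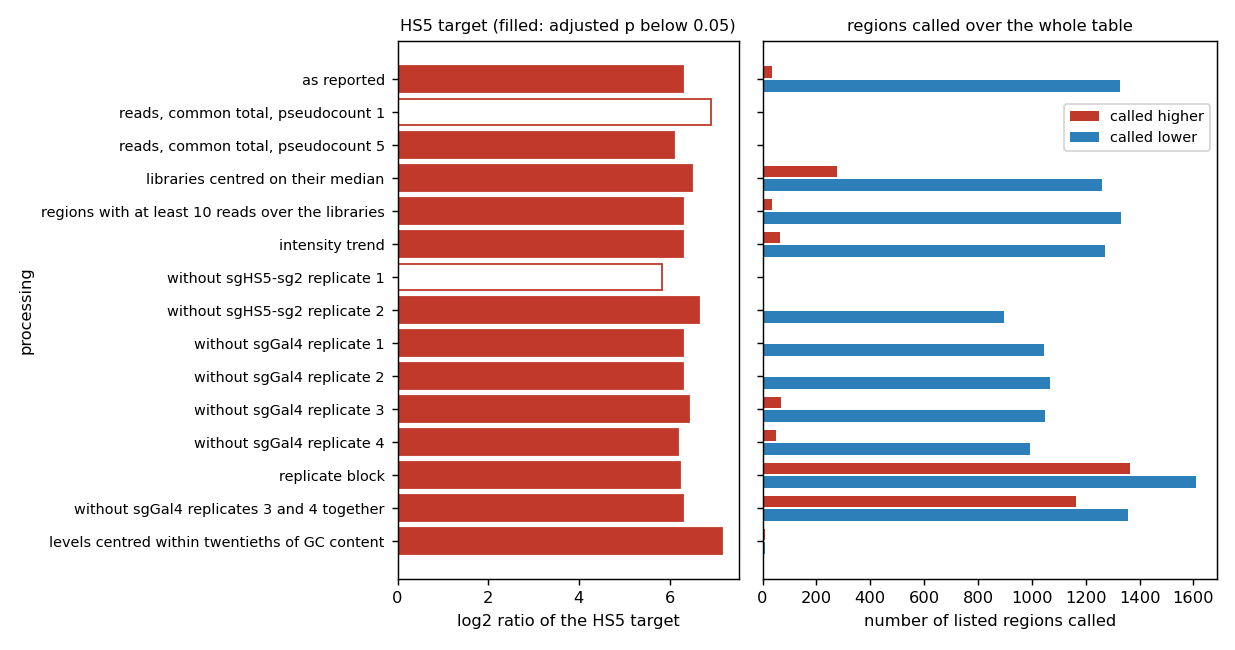
Log2 ratio of the HS5 target (left; open bars, adjusted p of 0.05 or more) and number of regions called higher (red) and lower (blue) over the table (right), for the values as reported and each alternative. The target keeps a ratio between 5.83 and 7.17, while the number called higher runs between 0 and 1363.

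Outside the cluster, the regions called higher were mostly GC-rich promoters. Of the 35, 25 had their centre within 1000 bp of a protein-coding start, 5 lay in exons, 4 in introns and 1 between genes. Over all listed regions these classes made up 34.7%, 6.52%, 22.9% and 35.9%. Among the 35, 30 had a GC content of 60% or more and 1 had under 45%, while the median over all listed regions was 57.7%. The reads behind them were few: no sgHS5-sg2 library held fewer than 8 or more than 91 reads in any of them, and 28 of the 36 had 0 reads in both sgGal4 replicates 3 and 4, as did 952 of all listed regions.

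The ZCCHC24 promoter (chr10:81205267-81205566), 36 bp from the start, was the second highest region. It held 40 and 59 reads in the sgHS5-sg2 libraries and 0, 0, 0 and 0 reads in the sgGal4 libraries. Every sgHS5-sg2 library was above every sgGal4 library, and against a floor of 3 reads over the sgGal4 group the share was at least 53.1-fold higher with sgHS5-sg2. Such limits, here and below, take the count of the group that had reads as exact, and its counting error would lower them. The log2 ratio of 3.89 (adjusted p 0.00874) depends on the level given to 0 reads and is no bound. The promoter of ARHGAP35 held 12 and 30 reads in the sgHS5-sg2 libraries and 0, 1, 0 and 0 reads in the sgGal4 libraries. The log2 ratio was 2.74 (adjusted p 0.0345), and the ratio of read shares was 67.6, with a counting interval of 11.5 to 2732. Neither region was listed in any of the other 16 tables, and the same held for the promoters of PPIA, UCK2 and UHRF1.

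The promoter of KIAA1549, known as a fusion partner of BRAF in brain tumours, held 19 and 16 reads in the sgHS5-sg2 libraries and 0 reads in each sgGal4 library, at least 18.8-fold higher. The promoter of VPS37D, a subunit of the ESCRT-I sorting complex, held 27 and 19 reads in the sgHS5-sg2 libraries and 1, 5, 0 and 0 reads in the sgGal4 libraries, with a log2 ratio of 2.43 (adjusted p 0.0117). VPS37D was listed in 9 tables with a ratio of at least 1 in each, and it had 1.97 with sgHS1-5. In all, 30 of the 35 regions were listed in 2 or more tables, and for 26 of them another table gave a ratio of 1 or more. Those tables share the sgGal4 libraries. The same shares were not worked out over all listed regions. It therefore cannot be said whether these counts, or the 5 regions listed only here, are particular to the regions called higher.

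Further down the order, the groups did not overlap in any region either. The regions were chosen by a call on the same levels, which largely fixes this. Over all listed regions, 759 (11%) had both sgHS5-sg2 libraries above all sgGal4 libraries. The promoter of LIN28B, an RNA-binding protein that blocks let-7 maturation and is known to raise fetal globin in adult erythroid cells, held 31 and 24 reads in the sgHS5-sg2 libraries and 2, 3, 2 and 1 reads in the sgGal4 libraries (log2 ratio 1.93, adjusted p 0.0478). LIN28B and TMEM65 were the only regions called higher that had reads in every sgGal4 library. The promoter of TMEM65, a mitochondrial inner membrane protein, held 47 and 91 reads in the sgHS5-sg2 libraries and 15, 27, 4 and 3 reads in the sgGal4 libraries (log2 ratio 2.01, adjusted p 0.0309). Other promoters among the 15 highest were those of CITED4, RNF225, EIF4B, GABBR1 and ZNF383, with log2 ratios between 1.81 and 2.12 and adjusted p between 0.0256 and 0.0428. A region between genes near SPAG4 (2.37, adjusted p 0.0456) and an exon of MELTF (2.05, adjusted p 0.0455) were also among them, as was LRGUK.

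The region in an intron of LRGUK (chr7:133859594-133859893) differed from these in composition, with a GC content of 37.7%. It held 25 and 21 reads in the sgHS5-sg2 libraries and 3, 7, 0 and 1 reads in the sgGal4 libraries. The log2 ratio was 1.94 (adjusted p 0.0228), against a median of -2.12 for the regions of similar GC content (18% to 42.3%). The region had a log2 ratio of 0.93 with sgHS1-5, where it was 1 of the 16890 listed.

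The target region holds 43 candidate protospacers of 20 bases followed by NGG on either strand. For 12 of them the 10 bases next to the PAM, followed by NGG, occurred in another listed region, 35 times in all, and 0 of these regions were called higher by limma. With 8 bases there were 501 occurrences and with 12 bases 5, again with 0 in regions called higher. With 0.52% of all regions called higher, a count of 0 in these regions is near the background and says nothing about off-target binding. The candidate with the most 8-base matches lies on the minus strand at chr11:5312671-5312690 and is shown because its seed overlaps the CTCF-like match. Capitals mark the 10 bases next to the PAM, of which the last 8 are the 8-base seed.
Candidate protospacer: ctgctgttatGACCACTAGA
Its 8-base seed with NGG was found in 125 other regions, and their median log2 ratio was -0.73. Of these regions 123 also held the CTCF-like match. The seed with NGG spells out that match wherever N is G or T, so this overlap is largely fixed by the sequence. Since the guide's own sequence is not known here, which candidate it uses cannot be said.

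GC content moved with the comparison over the whole table. In 5 groups of about equal size by GC content, from low to high, the median log2 ratio was -2.12, -0.93, -0.21, 0.31 and 0.78. In the lowest group (18% to 42.3% GC), 917 of 1394 regions were called lower and 1 higher, and in the highest (70.7% to 86% GC) 5 of 1370 were lower and 21 higher. By position, promoters had a median of 0.56 over 2400 regions, with 25 called higher and 56 lower. Introns had a median of -1.10 over 1585 regions (5 higher, 514 lower), regions between genes -0.82 over 2482 (1 higher, 686 lower) and exons -0.20 over 451 (5 higher, 72 lower). Promoters also had higher GC content, with a median of 69.3% against 46.7% for introns. Within each group the median was higher for promoters than for other regions, by the most in the middle one, at 0.16 against -0.35, and by the least in the highest, at 0.83 against 0.63.

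**Figure D4:**
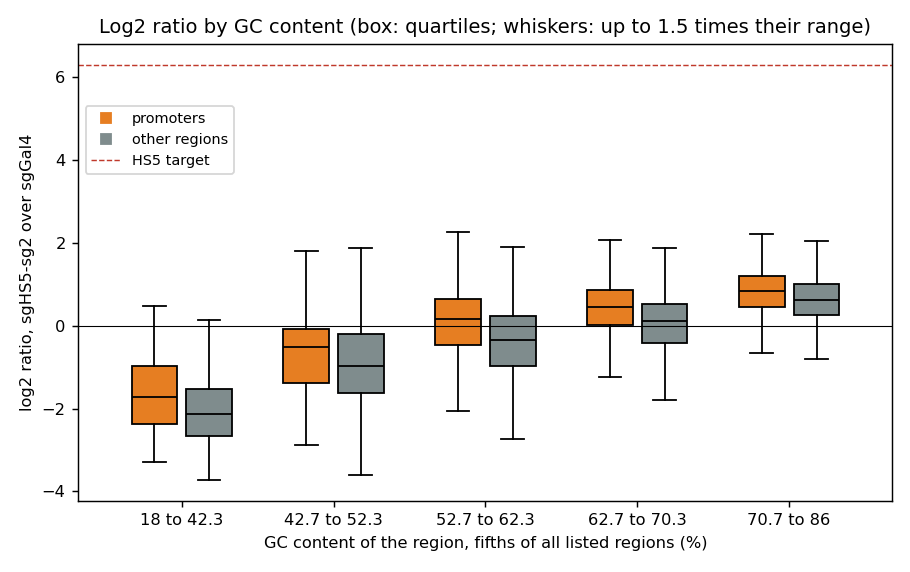
Log2 ratio of sgHS5-sg2 over sgGal4 (vertical) for promoters (orange) and other regions (grey) in 5 groups of about equal size by GC content (horizontal, %); box, median and quartiles; whiskers, up to 1.5 times the range between the quartiles, with points beyond them not drawn; dashed line, the HS5 target. Both kinds of region run from medians of -1.73 and -2.13 in the lowest group to 0.83 and 0.63 in the highest, and the target at 6.30 lies above all boxes and whiskers.

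The same shift was seen in the shares of reads, which do not depend on the levels given to 0 reads. These reads were worked out from the same levels and cover only the regions the authors listed, so the shares are not separate evidence. Promoter regions took 43.9% and 53.0% of the reads of the sgHS5-sg2 libraries, against 25.4%, 25.6%, 30.1% and 27.8% in the sgGal4 libraries. Regions with a GC content of 60% or more took 58.2% and 69.4% with sgHS5-sg2, against 36.2%, 36.5%, 39.7% and 36.4% with sgGal4. Regions below 45% took 9.63% and 6.03% with sgHS5-sg2, against 28.8%, 27.4%, 30.1% and 31.0% with sgGal4. The groups did not overlap in any of these shares, and the difference of the means was 21.3 percentage points for promoters, 26.6 for high GC and -21.5 for low GC. Each exact two-sided permutation p was 0.133, the smallest possible. Among the sgGal4 libraries, the shallow replicate 3 had the highest share for promoters and for high GC, and replicate 4 for low GC. The guide and any difference between the groups in how libraries were prepared or amplified cannot be told apart here.

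**Figure D5:**
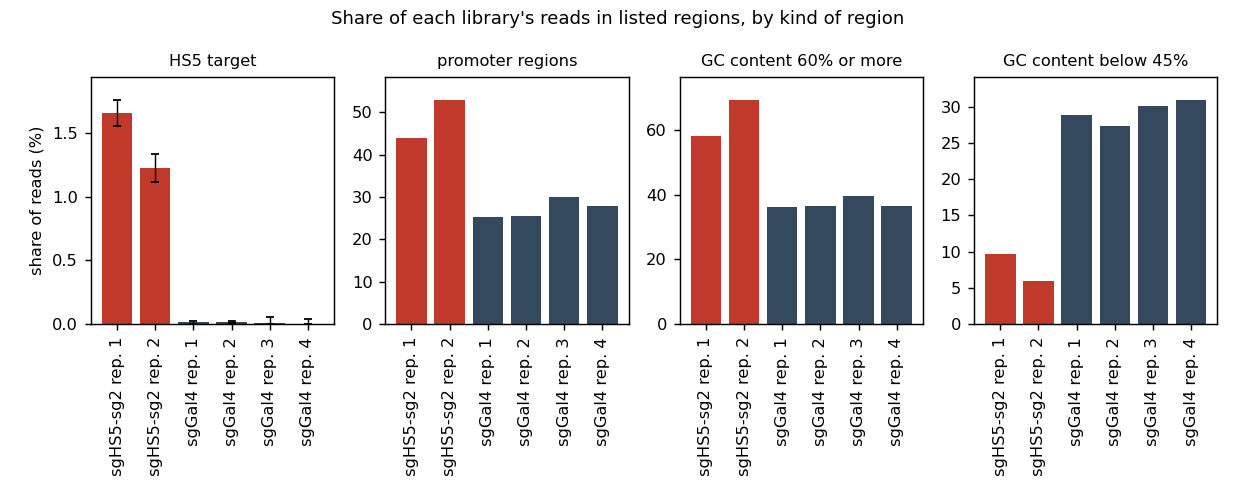
Share of each library's reads in listed regions (vertical, %) that fell in the HS5 target, in promoter regions, in regions with a GC content of 60% or more and in regions below 45%, with sgHS5-sg2 libraries in red and sgGal4 libraries in dark blue; error bars in the first panel are 95% Clopper-Pearson intervals. The sgHS5-sg2 libraries are above all sgGal4 libraries in the first 3 panels and below them in the last.

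When each library's levels were centred within twentieths of the regions by GC content, an alternative chosen after the values were seen, limma called 9 regions higher and 8 lower. The 36 regions called on the deposited levels shared 2 with the 9, the target at 7.17 (adjusted p 2.23e-06) and LRGUK at 3.77 (adjusted p 0.00630). ZCCHC24 had a centred ratio of 2.68 and an adjusted p of 0.0541, and ARHGAP35 had 2.07 and 0.108. All 8 regions called lower after centring were among the 1328.

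Regions lower with sgHS5-sg2 were AT-rich and mostly outside promoters. The 1328 had a median GC content of 38.0%, against 57.7% for all regions. Promoters made up 56 of them (4.22%), against 34.7% of all listed regions. Their reads summed over libraries had a median of 1 with sgHS5-sg2 and 26 with sgGal4, and 307 of them had 0 reads in both sgHS5-sg2 libraries, as did 308 of all listed regions. The lowest region called, in an exon of the adhesion receptor gene ADGRF1, held 0 and 0 reads in the sgHS5-sg2 libraries and 5, 7, 4 and 8 reads in the sgGal4 libraries. Its share was at least 4.97-fold lower with sgHS5-sg2, against a floor of 3 reads over the sgHS5-sg2 group, and its log2 ratio of -3.72 (adjusted p 0.0153) depends on the level given to 0 reads. A region between genes with OR4E1, an olfactory receptor gene, as nearest start held 0 and 0 reads in the sgHS5-sg2 libraries and 24, 43, 1 and 0 reads in the sgGal4 libraries, at least 14.1-fold lower. Here nearly all reads were in sgGal4 replicates 1 and 2. An intron of CA8, a carbonic anhydrase-related protein, held 0 and 0 reads in the sgHS5-sg2 libraries and 11, 16, 3 and 4 reads in the sgGal4 libraries, at least 7.04-fold lower. The other 5 of the 8 lowest, with nearest starts of KCNT2, PPIAL4G, GRIK3, TRPS1 and SEMA6A, lay between genes, had 0 reads in both sgHS5-sg2 libraries and log2 ratios between -3.62 and -3.49. PPIAL4G belongs to a family of near-identical cyclophilin A copies, so its reads are uncertain although only uniquely aligned reads were kept, per the labels' protocols.

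The lists of genes bearing on the locus were thinly covered. Over all listed regions 0.52% were called higher and 19.2% lower, so in lists this small a count of 0 says little. Of 13 CTCF and cohesin genes, 3 had a listed region within 10 kb, all promoters with 0 called in either direction by limma and a median log2 ratio of 1.38, held by WAPL, against -0.21 over all regions. Their GC content was 69.0% to 77.7%. The promoter of CTCF itself held 12 and 8 reads in the sgHS5-sg2 libraries and 0 reads in each sgGal4 library, at least 10.7-fold higher in share, with an adjusted p of 0.0885. The promoter of RAD21, a cohesin subunit, held 2 and 10 reads in the sgHS5-sg2 libraries and 0, 5, 0 and 0 reads in the sgGal4 libraries, which overlap (log2 ratio 1.02, adjusted p 0.523).

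Of 19 erythroid regulators, 5 had 7 regions, with 0 called in either direction by limma, against 0.52% higher and 19.2% lower over all regions. Their median log2 ratio was 0.36. They ran from 1.01 for BACH1, a repressor that senses haem (adjusted p 0.178), to -1.47 for ZFPM1, the GATA1 cofactor FOG1 (adjusted p 0.0628). The only alpha-globin region, at HBQ1, held 12 and 8 reads in the sgHS5-sg2 libraries and 9, 17, 0 and 4 reads in the sgGal4 libraries (log2 ratio -0.06, adjusted p 0.925). Of 14 haem and iron genes, 2 had a region. TFRC, the transferrin receptor, held 11 and 2 reads in the sgHS5-sg2 libraries and 0 reads in each sgGal4 library (adjusted p 0.250), and ALAD, an enzyme of haem synthesis, had a log2 ratio of -0.08 (adjusted p 0.973).

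The remaining lists were spread around the median of all regions or below it. With 0.52% of all regions called higher and 19.2% lower, 0 called higher in these lists is near the background. Ribosomal protein genes had 27 regions with a median of -0.02, 0 called higher and 1 (3.70%) lower. The region called lower was nearest to RPL13 and lies in an exon of SPG7 (-2.81, limma adjusted p 0.0101). The highest was the RPS15 promoter at 1.30 (adjusted p 0.144). Olfactory receptor genes had 5 regions at a median of -1.85 and a median GC content of 40.7%, with 2 (40%) called lower. Genes of this family flank the beta-globin cluster, but none of the 5 regions lay within 1 Mb of the target. The amplified intervals around BCR and ABL1, which K562 carries in extra copies, had 16 regions with a median of -0.57. Of these, 0 were called higher and 2 (12.5%) lower. EEF1A1, with the most reads with sgGal4, held 96 and 33 reads in the sgHS5-sg2 libraries and 26, 46, 277 and 59 reads in the sgGal4 libraries. The groups overlapped (log2 ratio -1.42, adjusted p 0.743), and this gene has many processed copies, so the reads are uncertain.

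Of all regions, 0.52% were called higher and 19.2% lower. Among regions with a factor's motif, 0.16% (CTCF) to 0.46% (the E-box) were called higher, and these shares were not tested against each other. The CTCF core consensus occurred in 642 regions (9.28% of all), with a median log2 ratio of -0.31, 1 called higher and 42 (6.54%) lower. Without its last letter it occurred in 822, the target included, with 2 called higher. From the lowest GC group to the highest, the median with the full core was -1.38, -0.71, -0.23, 0.03 and 0.39. For regions without the full core it was -2.15, -0.99, -0.19, 0.34 and 0.79. In the lowest group 32.3% of regions with the full core were called lower, against 67.3% of those without. The GATA motif AGATAA was in 902 regions (13.0%), with a median of -1.28, 3 higher and 332 (36.8%) lower, and these regions had a median GC content of 43.7%. Within the lowest GC group the median was -2.14 with the GATA motif and -2.11 without it. TGANTCA (AP-1 and NF-E2) was in 489 regions with a median of -0.67 and 130 (26.6%) lower. CAGATG (an E-box) was in 1085 with a median of -0.65 and 231 (21.3%) lower, and CCACACC (the CACC box) in 441 with -0.05 and 55 (12.5%) lower. All were searched on both strands, and matches of different motifs can overlap. The target itself held the E-box and no match to the full CTCF core, GATA, AP-1 or CACC motifs.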

How the data were processed

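The submitters' processing notes name Bowtie 1.0.0, Picard and the build hg19, and uniquely aligned reads were kept, per the labels' protocols. No peak caller or normalisation method is named there; both are not given in the sources used. The authors deposited log2 levels per library for 300 bp regions, with no unit in the file headers, so the log2 scale was taken from the values. Tables were normalised separately, so tests stayed within the table, in which 0 columns were left unused.

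The log2 ratio was recomputed from linear means and differed from the deposited one by at most 1.13e-09. Reads were worked out from the levels as the whole number behind each value less 1. The fit used limma 3.58.1 in R 4.3.3 on the deposited levels of the 2 sgHS5-sg2 and 4 sgGal4 libraries, without trend or covariates, with Benjamini-Hochberg adjustment over 6918 regions. On simulated data with 200 of 6918 regions raised, it recovered 24% at a log2 rise of 2, 99.5% at 4 and 100% at 6, with 2, 7 and 2 false calls. The simulated noise was normal and independent, with the fitted variance of each region. It held no fixed levels for 0 reads, no shallow libraries and no GC shift between the groups. The false calls therefore do not carry over to the counts called here. Gene positions came from GENCODE 44 (protein-coding, lifted to GRCh37). Replicate numbers are shared by the groups, and no pairing was used. The deviations of same-numbered libraries had r = 0.06 and -0.09 across regions, but this check cannot decide on pairing. The deviations of the 2 sgHS5-sg2 libraries from their mean mirror each other, which pushes the 2 values of r to opposite signs. With the replicate number as a block, limma called 1363 regions higher and 1609 lower.

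The regions, lists and tests were chosen with earlier results of these data known. Named regions were the target, the listed regions of the cluster and next to it, the 15 highest regions called, 1 of which is not reported here, the 8 lowest called, the highest and lowest of each gene list and the region with the most sgGal4 reads. Alternatives were the read scale with 2 pseudocounts, centring on the median, a minimum of 10 reads, an intensity trend, leaving out libraries, a replicate block, other thresholds, a narrower window and centring by GC content. The other samples of the series were not analysed here, except sgHS5 and sgHS1-5 at the named regions and the other tables' deposited ratios at the regions called higher.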

Additional observations from a re-analysis of the deposited data

Results flagged for a closer look

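Of 44 sets of 4 sgGal4 values examined, 1 had a library far from the other 3, and chance gives about 1 in 20. In the share of reads in regions with a GC content of 60% or more, sgGal4 replicate 3 had 39.7% and the other 3 between 36.2% and 36.5%, while the sgHS5-sg2 libraries had 58.2% and 69.4%.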

How the results depend on the processing

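The log2 ratio of the HS5 target kept its direction in every alternative run and its call in all but 2: 6.91 on reads scaled to a common total with a pseudocount of 1 (adjusted p 0.0620), and 5.83 without sgHS5-sg2 replicate 1 (adjusted p 0.0805). Leaving out 1 library at a time gave 5.83 to 6.65 for the target, 0 to 68 regions higher, 0 to 1068 lower, and a difference in the share of reads at the target of 1.21 to 1.64 percentage points. Where 1 sgHS5-sg2 library is left out, the other is assumed to vary like the sgGal4 libraries. The share alternatives, the fit without sgGal4 replicates 3 and 4 and the GC centring were chosen after seeing the data. For the number called higher (36 as reported), the values were 0 and 2 on reads with pseudocounts of 1 and 5, 277 with libraries centred on their median, 63 with an intensity trend, 1164 without sgGal4 replicates 3 and 4, and 9 with GC centring. At other thresholds they were 11 for a log2 ratio of at least 2, 1 at an unadjusted p of at most 1e-05 and 394 at an unadjusted p below 0.05. For the number called lower (1328), they were 0 and 0 on reads, 8 with GC centring and 0 at an unadjusted p of at most 1e-05; apart from leaving out sgHS5-sg2 replicate 1 (0), the other settings stayed within 1.5 times. With the replicate number as a block, on the 4 libraries numbered 1 and 2, 1363 were higher and 1609 lower, of which 33 and 1274 were shared with those called as reported, and the target stood at 6.24. Some named regions changed sign. HBG1 had 0.15 and 0.10 on reads with pseudocounts of 1 and 5, 0.11 centred on the median, 0.053 with the block, 0.053 without sgGal4 replicates 3 and 4 and 1.503 with GC centring; ALAD had 0.075, 0.047, 0.13, 0.43, 0.48 and 0.64 in the same order. HBQ1 had 0.14 centred on the median, 0.16 with the block and 0.16 without sgGal4 replicates 3 and 4. EEF1A1 had 1.15 with the block and 1.23 without those libraries. FHIP1B had 0.71 and GNAZ 0.22 with GC centring. With 1 library left out, HBG1 ran from -0.25 to 0.20, ALAD from -0.61 to 0.48, HBQ1 from -0.28 to 0.38, OR13G1 from -1.16 to 0.65 and RAD21 from -0.77 to 1.80. The cause of these changes was not tested. The shallow sgGal4 libraries, with a median of 1 read per region, limit the precision of every ratio.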

Other observations

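Of the regions not called, 14 had a log2 ratio of at least 2, most of them promoters in which sgHS5-sg2 replicate 2 held more reads than replicate 1; they fall outside the rule for named regions and were chosen after their values were seen. The highest was the promoter of SMCHD1, a chromosomal protein of X inactivation, with 23 and 61 reads in the sgHS5-sg2 libraries and 0, 14, 2 and 0 reads in the sgGal4 libraries (log2 ratio 2.60, limma adjusted p 0.0572). The promoter of MERTK, a receptor tyrosine kinase, held 12 and 17 reads in the sgHS5-sg2 libraries and 0 reads in each sgGal4 library (adjusted p 0.0530). The lowest ratio of the table, -4.23 at an exon near ZNF10, came from 2 and 0 reads in the sgHS5-sg2 libraries and 4, 2, 53 and 4 reads in the sgGal4 libraries, most of them in replicate 3 (adjusted p 0.172).

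GC centring brought 7 regions among those called higher that had no call on the deposited levels. They included the promoter of POU2F1, the octamer-binding factor OCT1, with 16 and 15 reads in the sgHS5-sg2 libraries and 2, 4, 0 and 2 reads in the sgGal4 libraries (centred log2 ratio 3.03, deposited 1.38). Its GC content was 42.3%, against a median of 69.3% for listed promoters. Among the 8 lower after centring were the promoter of MRPL52, a mitochondrial ribosomal protein, with 0 and 1 reads in the sgHS5-sg2 libraries and 9, 10, 4 and 2 reads in the sgGal4 libraries, and that of CXADR, the coxsackievirus and adenovirus receptor, with 1 and 1 reads against 14, 13, 1 and 2 reads in the sgGal4 libraries.

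By chromosome, the median log2 ratio ran from -1.49 on chromosome 13 (93 regions, 45 lower, median GC content 43.3%) to 0.53 on X (88 regions, 15 lower, 61.0%). Chromosome 11 had a median of -0.16 over 378 regions, with the target as the only region called higher (0.26%) and 56 (14.8%) called lower. Over all listed regions 0.52% were called higher and 19.2% lower, so these counts single out nothing about chromosome 11.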
